A study of Mus musculus with 30 samples.

Results

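The transcripts of 10 genes of the bone morphogenetic protein (BMP) and transforming growth factor beta (TGF-beta) pathway were followed in whole mouse lung: the receptors Bmpr2, Bmpr1a, Acvrl1, Tgfbr1 and Tgfbr2, the co-receptor Eng, the inhibitory Smads Smad6 and Smad7, and the BMP target genes Id1 and Id3. Every probe set whose annotation gives one of these symbols and no other was taken. This gave 24 probe sets for 10 genes, out of 36701 probe sets (control probe sets left out) and 15965 genes that have a probe set of a single symbol. A probe set is the group of short oligonucleotides on the array that together measure a transcript. Bmpr2 and Bmpr1a had 5 probe sets each, Acvrl1 had 4, and Eng, Tgfbr1 and Tgfbr2 had 2 each, while Smad6, Smad7, Id1 and Id3 had a single one. Of the 24 probe sets, 22 were bright enough to be tested. The Tgfbr1 probe set 92427_at (14.4 to 216.9) and the Tgfbr2 probe set 94702_at (8.21 to 124.9) were below the floor of 236.05 on all 9 A arrays, and both genes were measured by another probe set.

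The study exposed mice to 10% oxygen in a chamber, a model of pulmonary hypertension, and took total lung RNA after 10 h, 2 d, 4 d or 6 d. A further group is titled Norm, and its titles and description do not state the oxygen it breathed. Each of the 5 groups had 2 samples, 1a and 1b, each hybridised to 3 array types (A, B and C) with different probe sets. Strain, age and sex were not given in the labels. They do not say whether 1a and 1b were separate animals, so the spread behind each p-value may be a technical one.

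Several arrays stood apart. The array titled Norm 1a on type A stands among the B arrays, with Spearman correlations of -0.00277 to 0.00963 to them, and was left out, which left 29 arrays. Every A comparison against Norm, and so all those of Smad6, Smad7, Id1 and Id3, rests on the A array labelled Norm 1b and cannot be computed without it. Over the 1075 genes that A shares with B, the gene-centred levels of that array correlated at 0.153 with the 4 d group of B and at 0.0114 with its Norm group. Over the 1043 genes shared with C the values were 0.139 and 0.0714. The A array labelled 4 d 1a correlated at -0.0191 and -0.00220 with the 4 d groups of B and C, and its highest values were 0.0525 with 6 d on B and 0.0366 with 10 h on C. The A array labelled 6 d 1b correlated slightly more with 2 d (0.0968 on B, 0.0556 on C) than with its own group (0.0614 and 0.0477). On the 6 arrays of 2 d, the ratio of the 3' to the 5' control probe set of Gapdh, which is raised where RNA is degraded or copied incompletely, was 3.64 to 4.60, against 0.786 to 1.68 on the other 23 arrays. For the tissue check, all 8 lung epithelial markers looked for (surfactant proteins, Scgb1a1, Ager, Hopx and Aqp5) and all 18 endothelial markers passed the filter on dim probe sets. That filter asks only for a level above the floor on 2 arrays, so the check is a weak one.

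As background, ligands of this family bind pairs of type I and type II receptor kinases at the cell surface. The type II receptor phosphorylates the type I receptor, which phosphorylates receptor Smads. BMP receptors act through Smad1, Smad5 and Smad9, TGF-beta receptors through Smad2 and Smad3, and both sets join Smad4 to act on promoters. In the lung, loss of BMPR2 function is the best known inherited cause of pulmonary arterial hypertension in humans, and mutations of ACVRL1 and ENG cause hereditary haemorrhagic telangiectasia.

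Promoter sequences of 300 bases, 250 before and 50 after the annotated start of transcription, were found for 7 of the 10 genes in RefSeq (build GRCm38.p6), 8 promoters in all. They were searched on both strands for 3 motifs. GGCGCC is a GC-rich box found in BMP-responsive promoters. GTCTAGAC is a palindrome bound by Smad3 and Smad4. ACGTG is the core of the hypoxia response element. Among all 32851 promoters of that length, 11.9% held GGCGCC, 0.213% held GTCTAGAC and 19.6% held ACGTG. Of the 8 promoters, GGCGCC was in 3 (Bmpr2, Bmpr1a and 1 of the 2 of Tgfbr1), and GTCTAGAC and ACGTG were in 1, that of Smad6. The promoters of the genes with a probe set that passed a test, Bmpr1a and Eng, and that of Smad6, which holds the palindrome, are shown on the strand of the gene, with motif matches in capitals. Matches did not overlap one another. The GTCTAGAC of Smad6 starts at position -4 from the start of transcription. The Eng promoter holds none of the motifs in this window.
Bmpr1a, chr14:34502497-34502796, minus strand: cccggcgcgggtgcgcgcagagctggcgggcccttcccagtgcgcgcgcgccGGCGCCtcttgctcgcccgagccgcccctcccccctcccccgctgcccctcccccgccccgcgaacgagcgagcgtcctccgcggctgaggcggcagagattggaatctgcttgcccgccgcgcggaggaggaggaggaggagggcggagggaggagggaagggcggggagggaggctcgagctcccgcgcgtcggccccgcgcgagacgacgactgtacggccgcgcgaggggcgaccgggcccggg
Eng, chr2:32646345-32646644, plus strand: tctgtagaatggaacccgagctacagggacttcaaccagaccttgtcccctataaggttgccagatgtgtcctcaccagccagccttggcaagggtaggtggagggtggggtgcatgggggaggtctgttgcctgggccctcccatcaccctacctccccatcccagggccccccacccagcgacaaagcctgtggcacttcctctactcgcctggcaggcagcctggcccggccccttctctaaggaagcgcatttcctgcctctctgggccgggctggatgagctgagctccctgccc
Smad6, chr9:64022010-64022309, minus strand: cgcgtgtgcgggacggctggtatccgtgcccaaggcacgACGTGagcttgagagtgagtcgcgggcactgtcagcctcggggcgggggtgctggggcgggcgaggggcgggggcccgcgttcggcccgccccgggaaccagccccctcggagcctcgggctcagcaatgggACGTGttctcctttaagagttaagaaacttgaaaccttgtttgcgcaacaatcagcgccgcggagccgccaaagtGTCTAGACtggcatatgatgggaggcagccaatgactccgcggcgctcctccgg

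Few of the probe sets of the pathway genes passed a test. Differences are log2 differences of intensity with the standard error (SE) of limma's fit, and calls are limma's at a Benjamini-Hochberg adjusted p under 0.05 over all 25801 tested probe sets. After 2 d, 1 of the 22 probe sets passed against Norm, Bmpr1a 113907_at, which was lower, where 1.86% of all probe sets passed and 1.09% passed as lower. In the F test of any time against Norm, 2 of 22 passed, Eng 116170_at and Bmpr1a 113907_at, beside 1.24% of all probe sets. None of the 22 passed at 10 h (0% of all), 4 d (0.00775%) or 6 d (0%) against Norm, or in the mean of the 4 low oxygen groups against Norm (0%). Likewise none passed between late (4 d and 6 d) and early (10 h and 2 d) low oxygen (0.0155% of all), between 4 d and 10 h (0.0233%) or between 6 d and 2 d (0.0620%).

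At an unadjusted limma p under 0.05, 6 of 22 differed at 2 d against Norm (18.9% of all probe sets), and all 6 were lower (9.85%). At 10 h 1 of 22 was below this p (6.11% of all), at 4 d 6 were (6.13%) and at 6 d 4 were (9.17%). In the mean of low oxygen there were 3 (7.79%), and in the F test 8 (19.6%). Within low oxygen there were 4 between late and early (11.0%), 3 between 4 d and 10 h (8.08%) and 4 between 6 d and 2 d (13.0%). The median difference of the 22 against Norm was 0.0041 at 10 h, with 11 of 22 lower, -0.28 at 2 d, with 18 lower, -0.17 at 4 d, with 14 lower, and -0.21 at 6 d, with 19 lower. The share of all probe sets that were lower was 49.7% at 10 h, 47.8% at 2 d, 50.3% at 4 d and 49.5% at 6 d, with medians of 0.00. Counting 1 representative probe set per gene, 6 of the 10 genes were lower at 10 h (51.3% of all genes), 8 at 2 d (48.1%), 7 at 4 d (51.8%) and 8 at 6 d (48.6%). Comparisons with Norm share the Norm arrays, and probe sets of 1 gene are not independent.

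**Figure D1:**
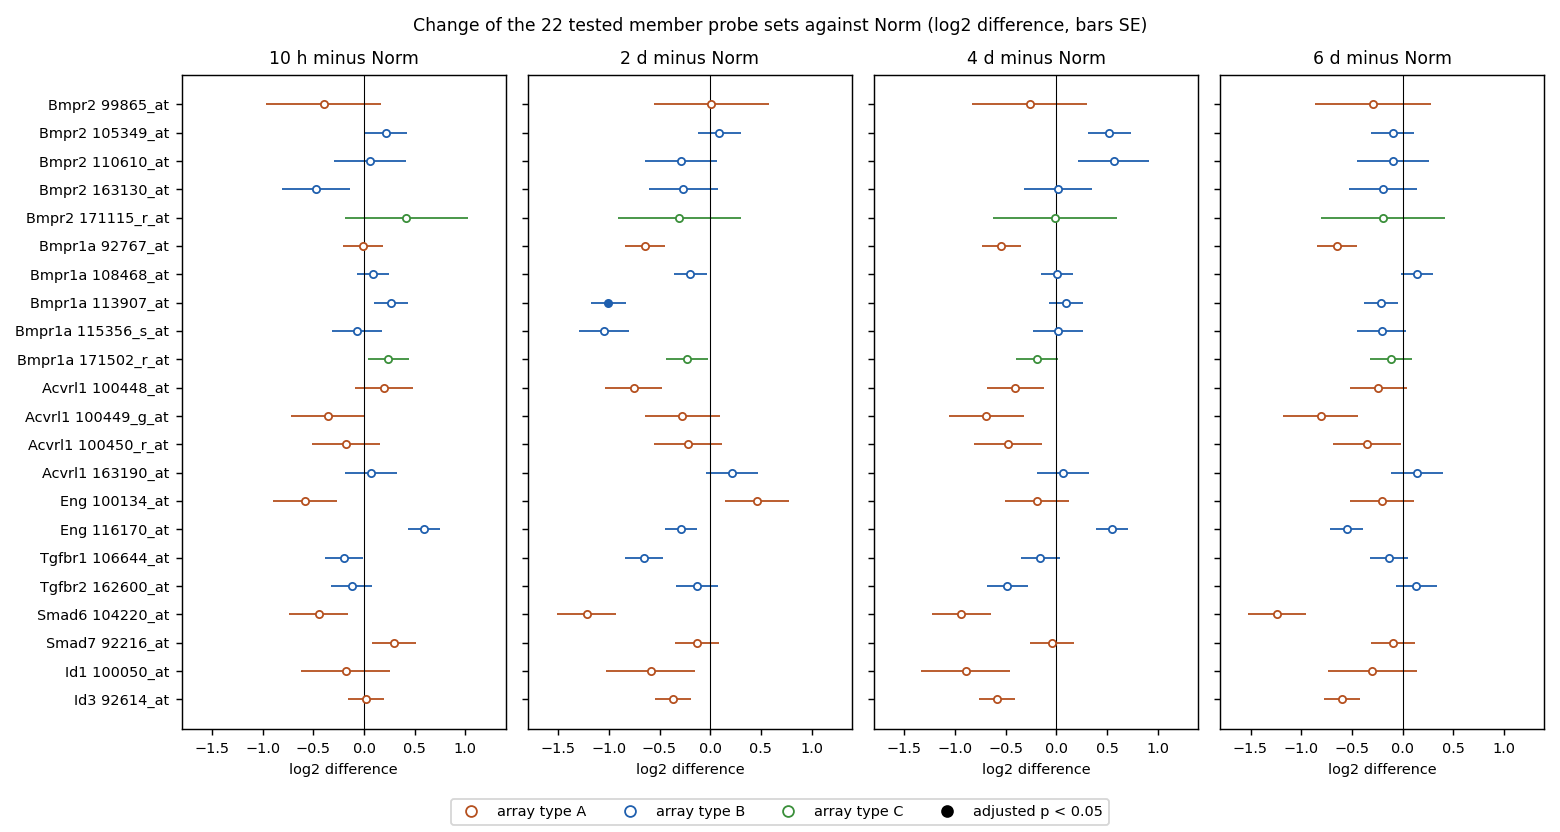
Log2 difference from Norm (horizontal axis) of each of the 22 tested probe sets at 10 h, 2 d, 4 d and 6 d of low oxygen, with bars for the SE, coloured by array type. The filled point, Bmpr1a 113907_at at 2 d (-1.004), is the only difference from Norm that passed the threshold, and the Smad6 points at 2 d (-1.22) and 6 d (-1.24) lie farther from 0 with a wider SE.

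Bmpr1a, the type I BMP receptor also called ALK3, passed as lower after 2 d on 1 of its 5 probe sets. The 2 d difference from Norm was negative on all 5. Probe set 113907_at had intensities of 3088 and 2459 in Norm (samples 1a and 1b), 3344 and 3297 at 10 h, 1197 and 1577 at 2 d, 2978 and 2903 at 4 d, and 2449 and 2315 at 6 d. Both 2 d arrays were below all other 8 arrays. At 2 d the level was 10.42 on the log2 scale, against 11.43 in Norm, which is 2.01-fold lower (-1.004 ± 0.17 SE, n = 2 each, limma adjusted p = 0.0279). At 6 d it was 0.79 ± 0.17 above 2 d (limma adjusted p = 0.114). The differences from Norm at 10 h (0.27), 4 d (0.09) and 6 d (-0.21) did not pass.

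The 2 d call of 113907_at was lost when any of 7 samples was left out: Norm 1a (adjusted p = 0.0676), 10 h 1a (0.0610), 10 h 1b (0.0613), 2 d 1a (0.109), 2 d 1b (0.0673), 6 d 1a (0.0635) or 6 d 1b (0.0634). The log2 difference stayed between -1.20 and -0.81. The call was also lost with no filter on dim probe sets (0.0561) and with only the 2 d and Norm arrays in the fit (0.117). The 2 d arrays, where the probe set was low, are those with the raised Gapdh ratio, and the part of that ratio in the result was not tested. A second B probe set, 115356_s_at (the suffix marks probes that other transcripts may share), had 1092 and 989.7 in Norm, 956.4 and 1025 at 10 h, 395.7 and 638.8 at 2 d, 1059.7 and 1041 at 4 d, and 893.7 and 907.5 at 6 d. It was also lowest on both 2 d arrays, by -1.05 ± 0.24 from Norm, without passing (limma adjusted p = 0.0643). Over the 10 samples its log2 level had a Pearson correlation of 0.94 with 113907_at, both being read from the same arrays.

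Of the other Bmpr1a probe sets, 108468_at and 171502_r_at differed by less at 2 d, and 92767_at gave only a bound there. On B, 108468_at ranged from 1717 to 2333 over the 10 arrays, and its 2 d difference from Norm was -0.20 ± 0.16 (limma adjusted p = 0.555). On C, 171502_r_at was dim, at 121.5 to 321.9 with 8 of 10 arrays above the floor of 200.93, and differed by -0.23 ± 0.21 at 2 d (adjusted p = 0.600). On A, 92767_at was 369.3 on the array labelled Norm 1b, 360.9 and 373.4 at 10 h, 24.3 and 126.1 at 2 d, 272.4 and 194.6 at 4 d, and 159.5 and 234.6 at 6 d. All 2 d and 6 d arrays were below the floor, so that 2 d and 6 d were each at least 1.56-fold lower than the array labelled Norm 1b (limma adjusted p = 0.126 at 2 d and 0.363 at 6 d, n = 2 and 1). The 2 d difference was -0.65 with the floor at the 40th percentile of the array type and -1.97 with it at the 20th, and neither passed. The F test of 113907_at gave an adjusted p of 0.0379, and it was lost without any 1 of the 8 low oxygen samples (0.0544 to 0.166), with no filter on dim probe sets (0.0870) and with no variance trend (0.0671).

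**Figure D2:**
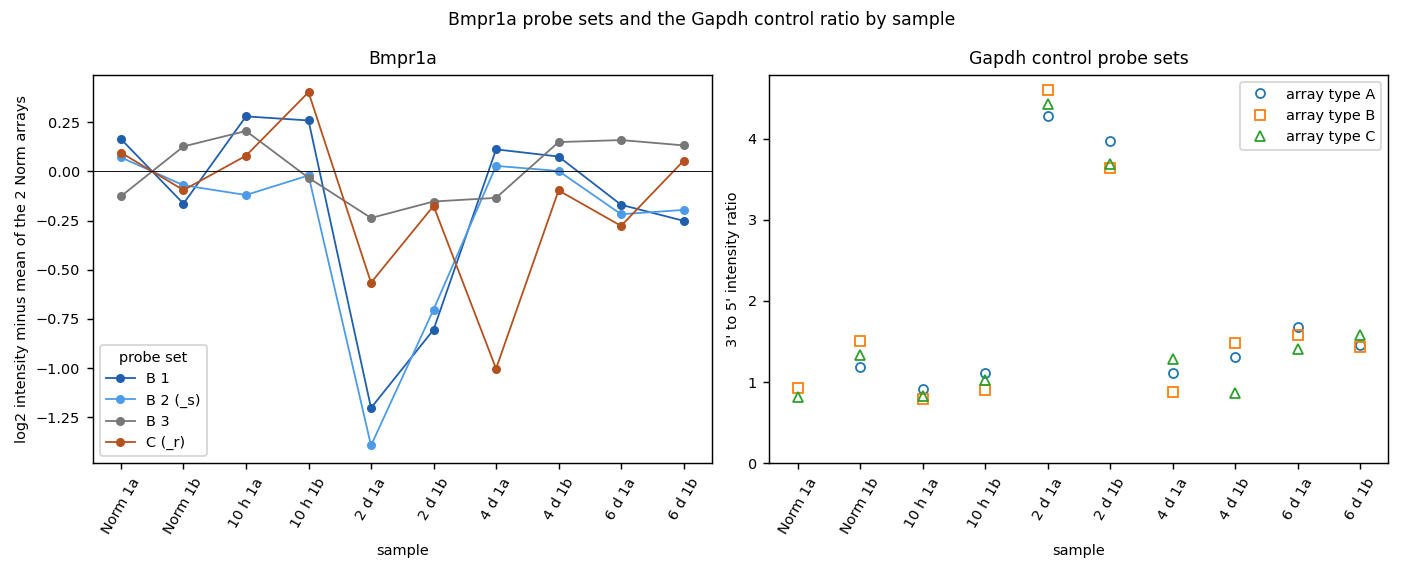
Left, log2 intensity of 4 Bmpr1a probe sets (B 1 is 113907_at, B 2 is 115356_s_at, B 3 is 108468_at, C is 171502_r_at) in the 10 samples, each minus the mean of its 2 Norm arrays; right, the ratio of the 3' to the 5' Gapdh control probe set on every array of types A, B and C. B 1 and B 2 are lowest in both 2 d samples, B 3 moves by much less, and the Gapdh ratio is 3.64 to 4.60 in those samples, against 0.786 to 1.68 elsewhere.

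Acvrl1 encodes ALK1, a type I receptor found mainly on endothelium that binds BMP9 and BMP10. Its 3 A probe sets and its B probe set gave different orders of the groups, but these orders could hardly be read. All 4 gaps between neighbouring group means were within the pooled SD between samples for 100449_g_at, 100450_r_at and 163190_at. For 100448_at 3 of the 4 were. The A probe set 100448_at had 1521 on the array labelled Norm 1b, 1790.1 and 1698 at 10 h, 760.7 and 1068 at 2 d, 986.6 and 1336 at 4 d, and 1155 and 1438 at 6 d. Its group mean was lowest at 2 d, -0.75 ± 0.28 from the array labelled Norm 1b (limma adjusted p = 0.200, n = 2 and 1). Both 10 h arrays were above all other arrays, with a 4 d minus 10 h difference of -0.60 ± 0.23 (adjusted p = 0.543). The B probe set 163190_at ranged from 3902 to 6329, both ends being Norm arrays, and its differences from Norm were 0.07 to 0.21 (adjusted p of 0.712 or more). The other A probe sets, 100449_g_at (1512 to 3499) and 100450_r_at (2862 to 5577), followed each other with a Pearson correlation of 0.92 over 9 samples, and each was lowest on the array labelled 4 d 1a.

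Tgfbr1 encodes ALK5, the type I receptor for TGF-beta. Probe set 106644_at had 2925 and 2428 in Norm, 2467 and 2195 at 10 h, 1476 and 1947 at 2 d, 2104 and 2716 at 4 d, and 2428 and 2444 at 6 d. Both 2 d arrays were below the other 8, as for Bmpr1a on the same B arrays, and the difference of -0.65 ± 0.19 at 2 d from Norm did not pass (limma adjusted p = 0.104). At 6 d the level was 0.52 ± 0.19 above 2 d (adjusted p = 0.272).

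Bmpr2, the type II BMP receptor, gave no call with any of its 5 probe sets. The brightest within its array type, 163130_at, had 21338 and 23137 in Norm, 12107 and 21045 at 10 h, 16100.3 and 21276 at 2 d, 21989.5 and 22924 at 4 d, and 19945 and 18961 at 6 d. Its mean was above those of 99.98% of B probe sets. The 10 h samples differed from each other by more than any pair of group means. The differences from Norm lay between -0.48 at 10 h and 0.02 at 4 d, each with an SE of 0.34 (limma adjusted p of 0.729 or more). Probe set 105349_at had 1328 and 1278 at 4 d, against 806.5 and 1018 in Norm (0.52 ± 0.21, adjusted p = 0.763), and both 4 d arrays were above the other 8. Its Pearson correlations with the other B probe sets of Bmpr2 over 10 samples were 0.0047 with 163130_at and 0.17 with 110610_at (731.1 to 1850). The C probe set 171115_r_at (950.4 to 3220) and the A probe set 99865_at (110.3 to 585.8, with 5 of 9 arrays above the floor) varied most between the samples of a group, with pooled SDs of 0.80 and 0.62 on the log2 scale.

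Tgfbr2, the type II TGF-beta receptor, was measured by 162600_at, with 9348 and 10052 in Norm, 7817 and 10172 at 10 h, 8681 and 9050.3 at 2 d, 7775 and 6186 at 4 d, and 10776 and 10529.6 at 6 d. Both 4 d arrays were below all other arrays, and both 6 d arrays were above them. The 4 d difference from Norm was -0.48 ± 0.20 (limma adjusted p = 0.787), and the 6 d difference was 0.14 ± 0.20 (adjusted p = 0.911).

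Eng encodes endoglin, a co-receptor of endothelial cells that binds BMP9 together with ALK1, and its level changed over time on the B arrays. Probe set 116170_at had 2318 and 1915 in Norm, 3261 and 3086 at 10 h, 1760.5 and 1689 at 2 d, 3471 and 2747 at 4 d, and 1399.7 and 1473 at 6 d. The 10 h and 4 d arrays were all above both Norm arrays, and the 2 d and 6 d arrays were all below them. On these B arrays the 3' to 5' control ratio of beta-actin was 0.0522 and 0.0430 at 10 h and 0.0272 and 0.0427 at 4 d. It was 0.0453 and 0.775 in Norm, 3.64 and 4.98 at 2 d, and 0.987 and 0.474 at 6 d. The part of that ratio in the Eng result was not tested. The F test over the 4 times against Norm passed (limma adjusted p = 0.0284, n = 2 each). The single differences from Norm were 0.59 ± 0.16 at 10 h (adjusted p = 0.500), -0.29 ± 0.16 at 2 d (0.368), 0.55 ± 0.16 at 4 d (0.611) and -0.55 ± 0.16 at 6 d (0.339), none of which passed.

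The call of 116170_at was lost without 10 h 1a (adjusted p = 0.0985), 10 h 1b (0.0884), 2 d 1a (0.104), 2 d 1b (0.110), 6 d 1a (0.122) or 6 d 1b (0.115), and kept without either sample of Norm or of 4 d. It was also lost with no filter on dim probe sets (0.0592) and with no variance trend (0.0551). The A probe set 100134_at took another course, with 12381 on the array labelled Norm 1b, 6394 and 10673.5 at 10 h, 16912.5 and 17111 at 2 d, 10747 and 10939 at 4 d, and 11559 and 9965 at 6 d. There the 2 d arrays were the highest, and the 10 h 1a array was the lowest. The 2 d difference from the array labelled Norm 1b was 0.46 ± 0.31 (limma adjusted p = 0.479, n = 2 and 1), and at 6 d the level was -0.66 ± 0.26 from 2 d (adjusted p = 0.321). Over the 9 samples with both, the log2 levels of the 2 Eng probe sets had a Pearson correlation of -0.53 and a Spearman correlation of -0.43. The other differences of 100134_at from the array labelled Norm 1b were -0.58 ± 0.31 at 10 h and -0.19 ± 0.31 at 4 d, the latter smaller than its SE. The sign of the difference from Norm at 10 h, 2 d and 4 d thus differed between the 2 probe sets. These also differ in array type and in the Norm arrays behind them, and the parts of these were not tested. At 6 d both differences from Norm were negative (-0.55 and -0.21).

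**Figure D3:**
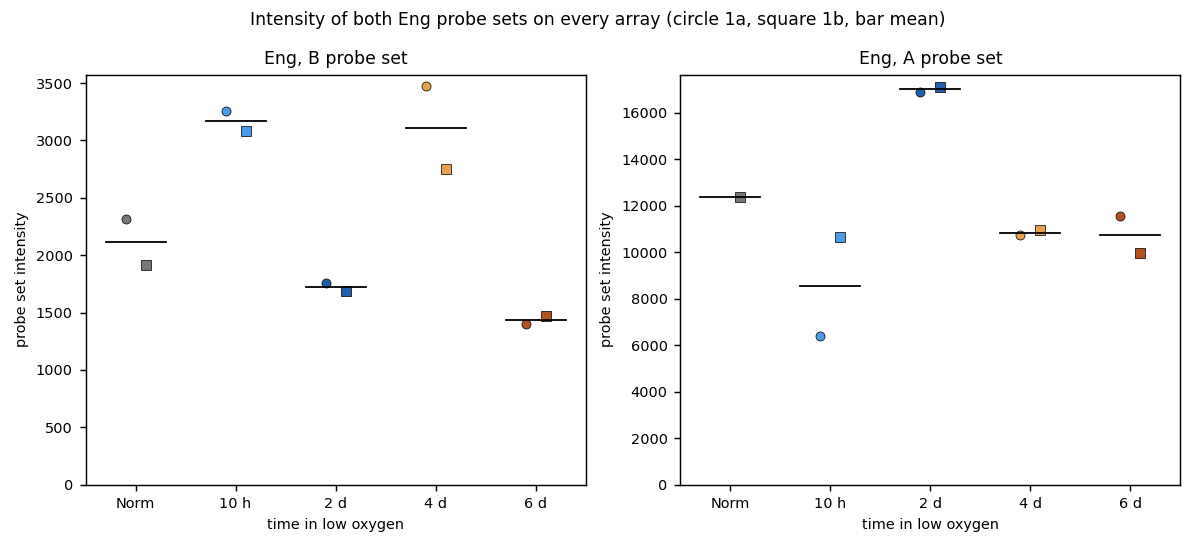
Intensity (vertical axis, from 0) of the B probe set 116170_at and the A probe set 100134_at of Eng on every array, by group, with circles for samples 1a, squares for 1b and bars for the group mean. The B probe set is high at 10 h and 4 d (2747 to 3471) and low at 2 d and 6 d (1399.7 to 1760.5), while the A probe set is highest at 2 d (16912.5 and 17111).

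Eng and Acvrl1 are expressed mainly in endothelium, and in whole lung fewer endothelial cells and less RNA per cell cannot be told apart. Of the 18 endothelial markers tested (among them Pecam1, Cdh5, Kdr, Tie1 and Cldn5), 1 passed as higher and 0 as lower at 2 d against Norm, and 0 passed in the other comparisons. Over all probe sets, 1.86% passed at 2 d and 1.24% in the F test. The summed intensity of the 13 markers on A was 56918 on the array labelled Norm 1b, 52440 and 60994 at 10 h, 62794 and 57865 at 2 d, 53148 and 51185 at 4 d, and 56899 and 56267 at 6 d. The summed intensity of the 3 on B (Esam, Plvap and Ptprb) was 26340 and 34951 in Norm, 19523 and 32730 at 10 h, 24701 and 21956 at 2 d, 31692 and 32342 at 4 d, and 23730 and 25803 at 6 d. The 2 on C summed to 6759 to 12076. On B the sums of 4 d were above those of 2 d and 6 d, as the Eng probe set was. The lowest B sum, however, was that of 10 h 1a (19523), where Eng 116170_at had 3261. The highest B sum was that of Norm 1b (34951), where Eng 116170_at had 1915. On C the sums of 4 d (6841 and 7558) were below those of 6 d (8075 and 8217). The part of the marker sums in the Eng result was not tested.

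The summed levels of muscle, lung epithelial and red cell markers varied between the A arrays. The summed intensity of 7 skeletal muscle markers was 920.4 to 1203 at 10 h, 2592 to 2840 at 2 d, 4662 to 7633 at 4 d and 2730 to 2960 at 6 d, against 9711 on the array labelled Norm 1b. Of the 7, 5 on the 10 h 1a array and 7 on the 10 h 1b array were at or below the floor, so the 10 h sums are not read as levels. On each 2 d and 6 d array 2 were. At 2 d 2 of the 7 passed as lower, where 1.09% of all probe sets did. Of 8 heart muscle markers 4 passed as lower at 2 d. The heart muscle sums were 19378 and 21340 at 10 h and 14026 and 12972 at 2 d. At 4 d they were 19165 and 21234, and at 6 d 16993 and 15135, against 24441 on the array labelled Norm 1b. The 6 smooth muscle markers on A summed to 13489 to 25395 over 10 h, 2 d and 4 d and to 11883 to 13846 at 6 d, against 16248 on the array labelled Norm 1b. Of all 8 tested, 1 passed in the F test, beside 1.24% of all probe sets. The 6 lung epithelial markers on A summed to 33280 and 67216 at 10 h, 135140 and 147397 at 2 d, 64225 and 65827 at 4 d, and 107366 and 81257 at 6 d, against 68179 on the array labelled Norm 1b. The 4 red cell markers on A (Hba-a1, Alas2, Slc4a1 and Bpgm) summed to 10383 and 18008 at 10 h, 38669 and 49685 at 2 d, 19441 and 22640 at 4 d, and 38403 and 21466 at 6 d, against 17799 on the array labelled Norm 1b. Both sums were highest on the 2 d arrays. None of the 8 epithelial or 5 red cell markers tested passed at 2 d by limma, where 1.86% of all probe sets passed. At 2 d 4 and 3 of them had an unadjusted p under 0.05, beside 18.9% of all probe sets. The part of these marker sums in the results of the A probe sets was not tested.

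The inhibitory Smads block receptor signalling, Smad6 chiefly that of BMP receptors and Smad7 that of both branches, and both are themselves induced by the pathway. Smad6 104220_at had 5564 on the array labelled Norm 1b, 3619.7 and 4599 at 10 h, 2789 and 2047 at 2 d, 2435 and 3471 at 4 d, and 2109 and 2642 at 6 d. All 8 low oxygen arrays were below the array labelled Norm 1b, and both 10 h arrays were above the other 6. At 2 d the difference was -1.22 ± 0.29 (limma adjusted p = 0.0727) and at 6 d -1.24 ± 0.29 (0.271). The others were 4 d at -0.94 (0.665), 10 h at -0.45 (0.910) and the mean of low oxygen at -0.96 ± 0.25 (0.407), none of which passed. With only the groups compared in the fit, 2 low oxygen arrays against a single Norm array, Smad6 passed at 2 d (adjusted p = 0.0129) and 6 d (0.0147). Without the array labelled Norm 1b, these differences have no value. Within low oxygen the late minus early difference was -0.25 ± 0.17 (adjusted p = 0.637). There that array enters only through the filter on dim probe sets and the mean level used by the variance trend. Smad7 92216_at ranged from 1941 to 2943 over the 9 arrays, its highest values being the 10 h arrays (2817 and 2943), and its differences from the array labelled Norm 1b were -0.13 to 0.29 (adjusted p of 0.807 or more).

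Id1 and Id3 encode inhibitors of basic helix-loop-helix transcription factors and are direct targets of BMP signalling. Id3 92614_at had 3805 on the array labelled Norm 1b, 3728 and 3975 at 10 h, 3195 and 2738 at 2 d, 2397 and 2676 at 4 d, and 2648 and 2386 at 6 d. The array labelled Norm 1b and the 10 h arrays were above all arrays of 2 d, 4 d and 6 d, and the arrays of 4 d and 6 d were below those of 2 d. The late minus early difference was -0.42 ± 0.10 (limma adjusted p = 0.248) and that of 4 d minus 10 h -0.60 ± 0.14 (0.274), neither of which passed. Against the array labelled Norm 1b the differences were 0.02 at 10 h, -0.36 at 2 d, -0.59 at 4 d and -0.60 at 6 d (adjusted p of 0.319 or more).

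Id1 100050_at had 2283 on the array labelled Norm 1b, 2166 and 1872 at 10 h, 1367 and 1694 at 2 d, 1938 and 779.9 at 4 d, and 1831 and 1887 at 6 d. The 4 d 1b array was the lowest of the 9 and the array labelled Norm 1b the highest, and the 2 arrays of 4 d enclosed all those of 2 d and 6 d. The differences from the array labelled Norm 1b were -0.18, -0.59, -0.89 and -0.30 at 10 h, 2 d, 4 d and 6 d, each with an SE of 0.44 (limma adjusted p of 0.522 or more). Between 4 d and 10 h the difference was -0.71 ± 0.36 (adjusted p = 0.680). When the A arrays labelled Norm 1b and 4 d 1a were left out, a setting chosen after seeing the data, that difference was -1.37 and passed (adjusted p = 0.0448), with a single 4 d array that is assumed to vary like the other groups.

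**Figure D4:**
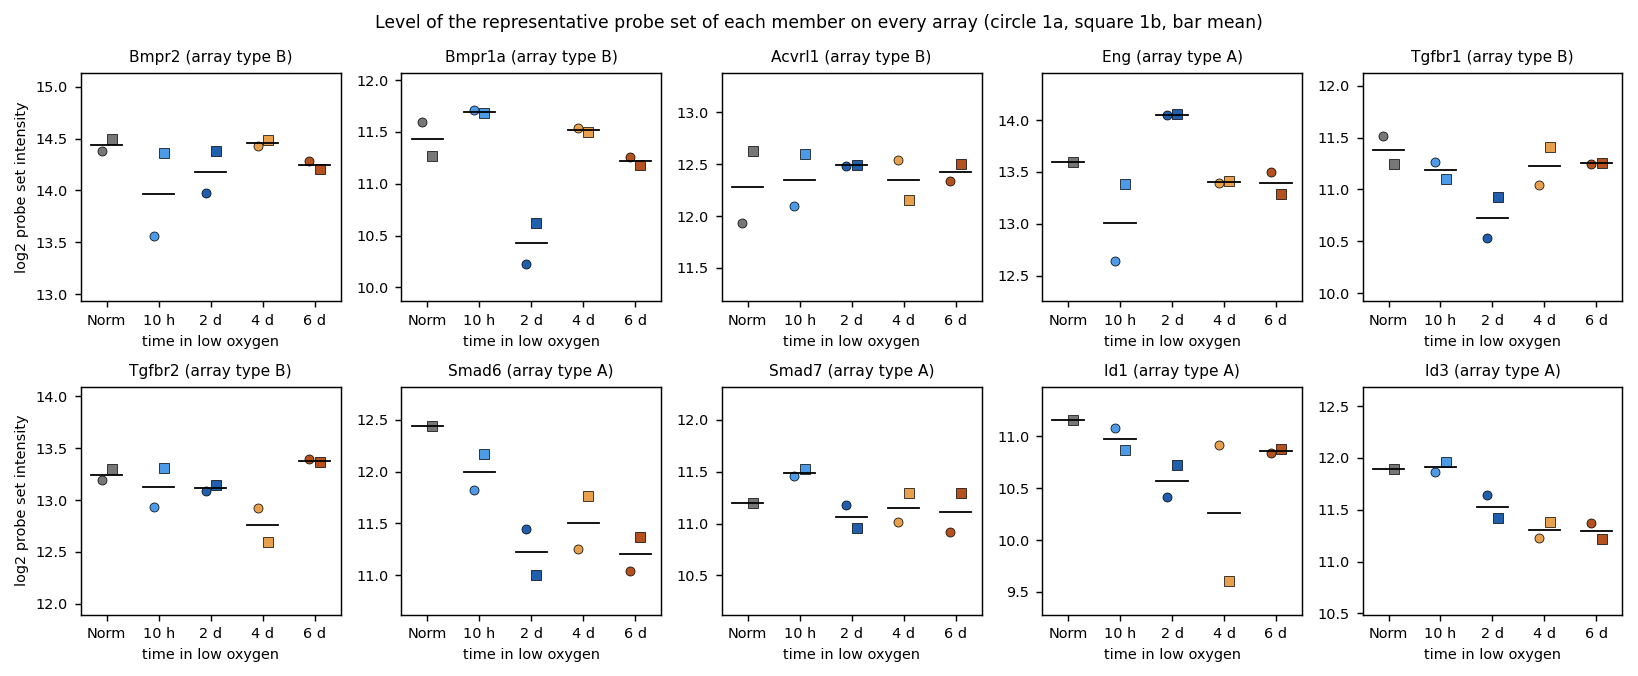
Log2 intensity (vertical axis, each panel spanning the same log2 range) of the representative probe set of each of the 10 genes on every array, by group, with circles for samples 1a, squares for 1b and bars for the group mean; the array type is in each title, and the A panels have only the array labelled Norm 1b in Norm. Bmpr1a and Tgfbr1 are lowest at 2 d, Smad6 and Id3 are lower on every array of 2 d, 4 d and 6 d than on those of 10 h, and Id1 has 1 low array at 4 d (779.9).

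The order of the group means could be read only in part. For the Eng B probe set the order from high to low was 10 h, 4 d, Norm, 2 d and 6 d. There 10 h and 4 d (0.04 apart) did not differ beyond the pooled SD between samples of 0.14, while the other neighbours were 0.55, 0.29 and 0.26 apart. For Bmpr1a 113907_at the order was 10 h, 4 d, Norm, 6 d and 2 d, with gaps of 0.18, 0.09, 0.21 and 0.79 beside an SD of 0.17. For Id3 it was 10 h, Norm, 2 d, 4 d and 6 d, with gaps of 0.02, 0.36, 0.22 and 0.01 beside an SD of 0.12. For Bmpr2 163130_at, Acvrl1 163190_at and Id1 all 4 gaps were within the SD, which was 0.29, 0.30 and 0.48.

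The rest of the pathway was taken from a list of 58 other ligands, receptors, Smads, regulators and targets, of which 52 were on the arrays and 45 were tested. None of the 45 passed in any of the 8 comparisons or in the F test by limma. Of all 13039 genes tested, 203 passed at 2 d against Norm, 137 in the F test and 0 to 6 in the other comparisons. A count of 0 among 45 is therefore near the share over all genes. At an unadjusted p under 0.05 there were 3 at 10 h (6.11% of all probe sets), 9 at 2 d (18.9%), 4 at 4 d (6.13%) and 6 at 6 d (9.17%) against Norm, and 11 in the F test (19.6%). Each of the 45 was counted by its representative probe set, whereas these percentages are over all tested probe sets, not over genes. The median difference from Norm of the 45 was 0.04 at 10 h, -0.11 at 2 d, -0.0042 at 4 d and 0.04 at 6 d, beside medians of 0.00 over the 13039 genes tested.

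The genes nearest to a call by the F test were among the targets and regulators. Ccn2, a matricellular protein induced by TGF-beta, was 2.06 ± 0.37 above the array labelled Norm 1b at 10 h (limma adjusted p = 0.297), and its F test gave an adjusted p of 0.0719. Pmepa1, a TGF-beta target that limits Smad signalling, was 0.71 ± 0.21 above Norm at 2 d (adjusted p = 0.112) and 0.91 ± 0.21 above at 6 d (0.250), with an F test adjusted p of 0.0525. Junb, an AP-1 subunit, differed by -0.73 ± 0.12 between late and early low oxygen (adjusted p = 0.139), with an F test adjusted p of 0.0668. Among the regulators, Ltbp3, which holds latent TGF-beta in the matrix, was -1.18 ± 0.23 from the array labelled Norm 1b at 4 d (adjusted p = 0.416; F test 0.0847). Smurf2, a ubiquitin ligase for receptors and Smads, was -0.71 ± 0.17 from Norm at 2 d (0.0709; F test 0.125). Ltbp2 was 0.87 ± 0.26 above the array labelled Norm 1b at 6 d (adjusted p = 0.357).

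Among the ligands, Bmp6 was -1.24 ± 0.32 from the array labelled Norm 1b at 6 d (limma adjusted p = 0.306) and -1.21 ± 0.32 at 2 d (0.0901). Bmp4 was 0.46 ± 0.16 higher at 6 d than at 2 d (adjusted p = 0.270), and Tgfb3 was 0.50 ± 0.22 above the array labelled Norm 1b at 2 d (0.273). Of the other receptors, Acvr1, the type I BMP receptor ALK2, was -0.89 ± 0.23 from Norm at 2 d (adjusted p = 0.0825) and 0.92 ± 0.23 higher at 6 d than at 2 d (0.147). Tgfbr3 and Acvr1b had F test adjusted p-values of 0.576 and 0.706. Of the other Smads, Smad5 was 0.85 ± 0.29 above Norm at 4 d (adjusted p = 0.696), and Smad4 and Smad2 had F test adjusted p-values of 0.564 and 0.683.

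For the 3 genes whose representative probe set had the smallest F test p, the genes with the most similar course over the same arrays were listed. For Bmpr1a 113907_at these were Ythdf3, Fam91a1 and Mbnl2, with Pearson correlations of 0.985, 0.980 and 0.974 over 10 B arrays, among 7641 probe sets of a single symbol. For Id3 they were Ubl5, Usp4 and Atp2a3 (0.913, 0.903 and 0.900 over 9 A arrays, among 7519 probe sets of a single symbol). For Smad6 they were Tomm40, Dcn and Casp8ap2 (0.931, 0.924 and 0.919). The points of each correlation come from the same arrays and share their RNA, and the highest of so many values is high by selection.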

How the data were processed

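Whole mouse lung RNA was profiled on Affymetrix MG-U74 version 2 arrays (3 types) in 5 groups of 2 samples, 30 arrays, of which 29 were used. Each deposited value is a linear intensity of a probe set, and which software the authors used to summarise it is not given in the sources used here. With 2% of values trimmed at both ends, array means were 800.2 to 800.4, so no further normalization was applied. Samples were grouped by title. The description of the Norm samples speaks of a rejection, which the titles do not, and the titles were followed.

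A floor at the 40th percentile of each type (236.05 for A, 297.36 for B, 200.93 for C) was set, probe sets above it on at least 2 arrays were kept (25801), and log2 was taken. limma 3.58.1 in R 4.3.3 fitted 5 group means per array type (eBayes with a variance trend). Tests were two-sided, with Benjamini-Hochberg adjustment over the 3 types together and a threshold of 0.05; the fit was tested on simulated data. Precision is limited by how few arrays there are.

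Gene symbols came from the platform annotation, which can be old. Of the probe sets with no control role, those with several symbols (396, 178 and 150 on A, B and C) or none (1193, 1652 and 4001) named no gene. Every probe set of the 10 genes is described. A gene's representative is a plain probe set before suffixed ones, then the brightest relative to its array type. Of the pathway list, genes that pass are named, otherwise the 3 of each group with the smallest F test p; the 3 most similar genes are named for the 3 representatives with the smallest F test p. The genes, lists and rules were chosen with earlier results of these data known. Other settings tried were the floor, the filter, quantile normalization, no variance trend, a replicate block, adjustment within array type, only the groups compared, and leaving out samples or doubtful arrays.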

Additional observations from a re-analysis of the deposited data

How the results depend on the processing

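Of 701 single values recomputed under another setting, 667 kept their direction and their side of the threshold, 29 lost a call, 4 gained one and 1 reversed. The reversed one was Bmpr1a 92767_at, late minus early, at 0.18 with the floor at the 20th percentile, against -0.27 with the floor at the 40th percentile. Most of the 701 belong to results that had not passed, so the 667 do not measure how stable the calls are. The 2 d call of Bmpr1a 113907_at was lost in 10 of 19 settings. Its F test call was lost in 11 of 18, and that of Eng 116170_at in 8 of 18. The count of pathway probe sets passing at 2 d against Norm (1) was 0 with no filter on dim probe sets, 0 with the replicate block (Bmpr1a 113907_at, adjusted p = 0.0531), 2 when 5 arrays had to exceed the floor, 2 with adjustment within array type, and 0 to 1 when leaving out a sample. At 6 d (0) it was 1 with only the groups compared, Smad6 (adjusted p = 0.0147), which also passed at 2 d there (0.0129) while Bmpr1a 113907_at did not. Between 4 d and 10 h (0) it was 1, Id1, without the A arrays labelled Norm 1b and 4 d 1a, a setting chosen after seeing the data. In the F test (2) it was 0 with no filter, 0 with no variance trend, 1 with the replicate block (Bmpr1a 113907_at lost, 0.0742), and 0 to 2 when leaving out a sample. Over all probe sets, the calls at 2 d (480) were 217 with the replicate block, 249 with only the groups compared, 319 with no variance trend, 733 with adjustment within array type and 23 to 439 when leaving out a sample; without the 2 d samples the count has no value. The calls over all probe sets lay between 0 and 73 at 10 h (0 reported), 0 and 61 at 4 d (2), 0 and 64 at 6 d (0), 0 and 94 for the mean of low oxygen (0), 0 and 87 late minus early (4), 0 and 144 for 4 d minus 10 h (6), 0 and 100 for 6 d minus 2 d (16), and 0 and 672 in the F test (319). The letters 1a and 1b do not pair the samples: correlations of the 1a minus 1b differences between groups were -0.103 to 0.0899 on A, -0.156 to 0.135 on B and -0.110 to 0.0576 on C. Without Norm 1b, A comparisons with Norm have no value. Dim probe sets (Bmpr1a 92767_at and 171502_r_at, Bmpr2 99865_at) give bounds or noisy values.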
